A study of Mus musculus with 24 samples.

Results

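Members of the mitochondrial translation machinery were taken from the arrays by symbol: every probe set (a group of short probes read as 1 transcript) that is annotated with a single gene whose symbol starts with Mrpl or Mrps followed by a digit, and those of the translation factors Tufm, Tsfm, Gfm1, Gfm2, Mtif2 and Mtif3. This gave 82 genes of 18194 named on the arrays: 47 with Mrpl symbols, 29 with Mrps symbols and 6 factors. Mrpl members are called large subunit and Mrps members small subunit here by symbol alone. The place of a single member can differ from its symbol. Total RNA of C2C12, an established line of mouse myoblasts, was hybridised to 24 arrays of 2 Affymetrix designs, called MA and MB here as in the sample titles, with 4 groups of 3 arrays per design. The cells had been transduced with the pSuperR vector carrying a short hairpin RNA (shRNA) against p68, the RNA helicase encoded by Ddx5, or with the empty pSuperR vector. Each was kept in differentiation medium (DM), in which myoblasts leave the cell cycle and fuse into myotubes, or in growth medium (GM), in which they divide. All groups therefore carry the vector backbone, and the labels name neither the hairpin target within p68, nor a clone, nor a time in either medium. On MA 135 probe sets of 78 member genes were found, of which 118, covering all 78, had a signal of at least 30 in at least 3 arrays and were tested; on MB 36 of 38 were tested, and Mrps10, Mrps27, Mtif3 and Tsfm were measured there alone. A probe set kept through 1 group only could pass the filter because that group was high. Shares below are of tested probe sets and do not remove this selection. A dimmer MA probe set of Mrpl21, for example, read 52.1, 32.0 and 63.5 in DM vector arrays and 15.4, 10.8 and 26.4 in GM vector arrays. It stays in the counts.

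The mitochondrial ribosome is made of proteins encoded in the nucleus and RNA encoded in mitochondrial DNA, and it makes the few subunits of the respiratory chain and ATP synthase that the mitochondrial genome still encodes. Part of its proteins descend from bacterial ribosomal proteins and part are found in mitochondria only. Initiation uses Mtif2, which brings the formylated initiator tRNA, and Mtif3. Elongation uses Tufm, which delivers charged tRNA, its exchange factor Tsfm, and Gfm1, which moves the ribosome along. Gfm2 splits the ribosome for another round together with Mrrf. Muscle cells are known for raising their mitochondrial content as they differentiate.

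Promoters of mitochondrial ribosomal protein genes are known for sites of the regulators NRF1, GABP and YY1, so the 250 bases before the start of each gene, from RefSeq on GRCm38.p6, were searched on both strands; 72 of the 82 genes had an entry, with 78 windows. The letters CCGGAAG, the core of ETS factors such as GABP, were held by 18 of 72 genes (25%), against 7.826% of 27025 genes of the table and 10.17% of its 17491 protein-coding genes. GCGCANGC, an NRF1 core that can overlap a second copy of itself, was held by 19 of 72 (26.39%), against 9.384% and 12.42% of the same gene sets. AAGATGGC of YY1 was held by 4 (5.556%), against 1.828% and 1.767%, and the E-box CACGTG bound by Myc by 5 (6.944%), against 6.86% and 7.61%. The windows below belong to the members with the largest rises (Mrps18c and Mrpl32) and the largest falls (Mrpl12 and Mrps11) with DM in vector cells; matches to the 4 motifs are in capitals.
Mrps18c (chr5:100798509-100798758, plus strand): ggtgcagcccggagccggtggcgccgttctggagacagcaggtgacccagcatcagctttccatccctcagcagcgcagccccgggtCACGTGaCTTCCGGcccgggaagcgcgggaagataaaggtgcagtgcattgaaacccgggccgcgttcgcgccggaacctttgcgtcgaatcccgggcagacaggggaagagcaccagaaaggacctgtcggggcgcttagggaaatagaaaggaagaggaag
Mrpl32 (chr13:14613038-14613287, minus strand): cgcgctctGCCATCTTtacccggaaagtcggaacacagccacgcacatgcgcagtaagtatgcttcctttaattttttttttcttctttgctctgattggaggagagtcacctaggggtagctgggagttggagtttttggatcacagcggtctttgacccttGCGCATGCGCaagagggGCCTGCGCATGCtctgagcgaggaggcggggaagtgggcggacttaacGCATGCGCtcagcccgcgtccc
Mrpl12 (chr11:120484387-120484636, plus strand): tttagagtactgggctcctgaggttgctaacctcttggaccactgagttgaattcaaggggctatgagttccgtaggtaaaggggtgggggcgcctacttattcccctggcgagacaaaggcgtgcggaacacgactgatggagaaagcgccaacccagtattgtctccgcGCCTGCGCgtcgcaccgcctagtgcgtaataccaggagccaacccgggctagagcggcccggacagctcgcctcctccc
Mrps11 (chr7:78782881-78783130, plus strand): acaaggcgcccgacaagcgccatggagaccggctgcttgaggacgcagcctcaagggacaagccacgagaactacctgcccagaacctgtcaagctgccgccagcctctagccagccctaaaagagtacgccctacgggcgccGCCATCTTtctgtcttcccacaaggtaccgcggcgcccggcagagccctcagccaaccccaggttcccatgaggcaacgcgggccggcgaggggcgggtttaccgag
The Mrps18c window holds CACGTG 163 to 158 bases before the start and, 1 base further on, the reverse complement of the ETS core. Mrpl32 holds 1 YY1 match and 3 stretches of NRF1 core, 2 of them formed by overlapping copies; Mrpl12 holds 1 NRF1 core 79 to 72 bases before its start, and Mrps11 1 YY1 match. Of the members that rose with DM in vector cells 7 of 17 held the NRF1 core, against 1 of 13 that fell and 11 of 39 that passed in neither direction; the ETS core was held by 4 of 17, 4 of 13 and 9 of 39. The sets by call do not hold all 72 genes, and no share by call was taken over all genes. Whether the motifs differ between these sets was not tested. The matches are of letters and no measurement of binding.

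Signals are the deposited intensities on a linear scale and cannot be compared between probe sets. Their mean, with 2% cut from each end, was 150.1 on each MA array and within 0.1 of that on each MB array. MA arrays correlated at 0.951 (DM vector replicate 3) to 0.983 with the others of their group and MB arrays at 0.825 to 0.886, and the median residual SD was 0.214 on MA and 0.523 on MB (log2). Ddx5 averaged 326.0 with the shRNA against 540.8 with vector in DM (-0.68 ± 0.15, adjusted p = 0.00677), and 372.0 against 464.3 in GM (-0.31 ± 0.15, adjusted p = 0.287). All 6 muscle markers (Myog, Ckm, Myh3, Acta1, Tnnt3, Des) rose with DM in both constructs. Their summed signal was 21784.8 to 24850.4 in DM shRNA arrays, 26813.8 to 42976.4 in DM vector, 1659.3 to 1728.4 in GM shRNA and 2287.1 to 2530.9 in GM vector. Macrophage, adipocyte and osteoblast markers summed to at most 328.9, with Ptprc, Adipoq, Fabp4, Ibsp and Col2a1 below the filter; smooth muscle markers summed to 6374.5 to 12744.2, with Myh11 below it. The log2 ratio of 3' to 5' control probes, a sign of RNA quality, moved with the groups: on MA it was -0.058 to 0.016 in DM shRNA arrays, -0.084 to 0.03 in DM vector, 0.01 to 0.039 in GM shRNA and 0.034 to 0.108 in GM vector, so that every DM vector array lay below every GM vector array. On MB it was 0.084 to 0.127 in GM vector arrays and at most 0.025 in all others. Its part in the members' changes was not tested.

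DM against GM in vector cells asks how these genes move with differentiation. They did not move as a block. Of 118 member probe sets on MA 27 rose (22.88%), where 23.9% of all tested probe sets rose. Falls numbered 20 (16.95%), where 25.4% of all fell. The median log2 change was 0.072 over the members and 0.008 over all. The quartiles were -0.219 and 0.353 over the members and -0.454 and 0.447 over all, so the members' changes were spread less widely. Rises reached 1.31 (Mrps18c) and falls -1.13 (Mrpl12), so members of 1 particle moved in opposite directions. The shares of the large subunit (15 up and 12 down of 75) and of the small subunit (10 up and 8 down of 37) were each near those of all members. Among subunits with a bacterial counterpart 14 rose and 15 fell of 69. Among the other Mrpl and Mrps members, all taken as specific to mitochondria, 11 rose and 5 fell of 43. That group was made by exclusion and can hold exceptions. With DM in shRNA cells 7 rose and 7 fell of the 69, and 5 rose and 9 fell of the 43. The lean to rises among the 43 was therefore seen in vector cells only.

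**Figure D1:**
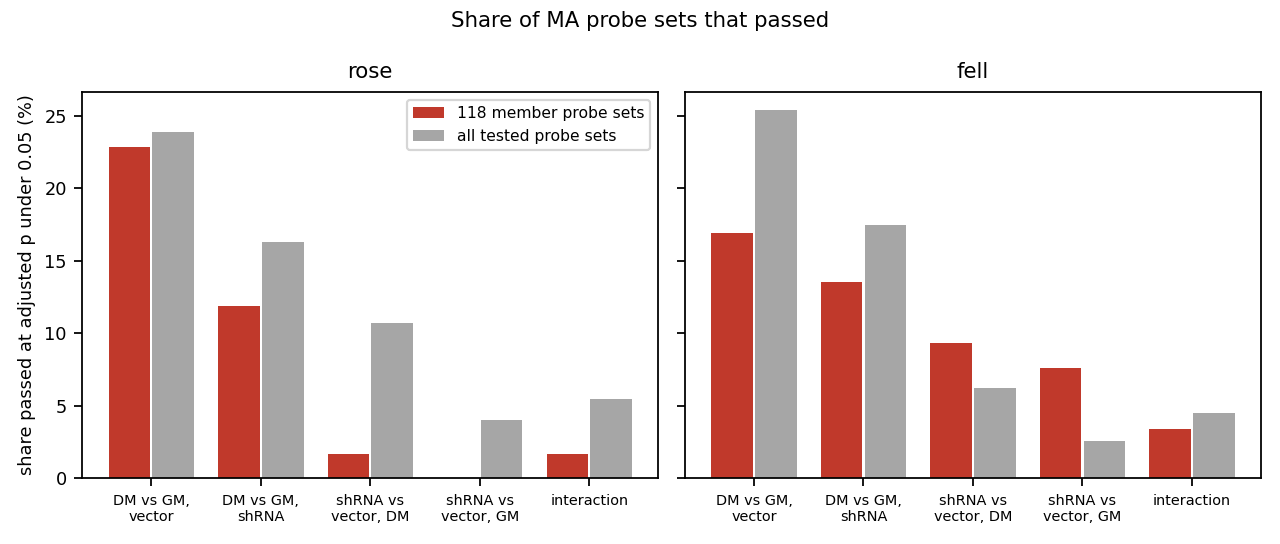
Share of MA probe sets that rose (left) or fell (right) at adjusted p under 0.05 in each comparison (percent, y axis), for the 118 member probe sets (red) and all 14367 tested probe sets (grey); the interaction counts probe sets whose change with DM was higher or lower in shRNA cells. With the shRNA in DM, 9.322% of member probe sets fell and 1.695% rose, against 6.24% and 10.7% of all.

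In the large subunit, Mrpl32, a zinc-binding protein that a mitochondrial protease trims before assembly, read 526, 625 and 252 in DM vector arrays against 233, 181 and 163 in GM vector arrays. The groups did not overlap, but DM vector replicate 3 was far below its partners; the log2 change was 1.14 ± 0.24 (SE, adjusted p = 0.00127), and 0.887 to 1.518 when single arrays were left out. Mrpl50, a subunit specific to mitochondria, read 206, 181 and 126 in DM and 74.1, 69.6 and 63.8 in GM vector arrays, a rise of 1.12 ± 0.17 (adjusted p = 7.45e-05). Every DM array lay above every GM array. Mrpl21 rose by 0.92 ± 0.13 and Mrpl22, a protein of the exit tunnel wall in bacteria, by 0.81 ± 0.18 (adjusted p = 3.81e-05 and 0.00153). Mrpl12 forms the flexible stalk that recruits translation factors and is also known to bind the mitochondrial RNA polymerase. It read 585, 690.2 and 593 in DM vector arrays against 1268, 1619 and 1286 in GM vector arrays, -1.13 ± 0.14 on the log2 scale (adjusted p = 6.99e-06) and the largest fall of any member by its brightest probe set. Mrpl20, whose bacterial counterpart is needed early in assembly, read 369, 434 and 456 in DM and 732, 807 and 784 in GM vector arrays (change -0.87 ± 0.15, adjusted p = 0.000249). Mrpl40, specific to mitochondria, read 167, 178 and 195 in DM against 296, 298 and 345 in GM vector arrays (change -0.75 ± 0.12, adjusted p = 8.54e-05). In both genes all 3 DM arrays lay below all 3 GM arrays. Mrpl11, at the base of the stalk, fell too (-0.71 ± 0.14, adjusted p = 0.000643), as did Mrpl34 (-0.51 ± 0.18, adjusted p = 0.0291). The Mrpl34 call was lost without any single DM vector array or without GM vector replicate 3 or 4 (adjusted p 0.0502 to 0.142).

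In the small subunit, Mrps18c, 1 of 3 mammalian homologues of bacterial S18, read 355, 309 and 322 in DM vector arrays against 113, 107 and 156 in GM vector arrays. All DM arrays were above all GM arrays, and the rise of 1.31 ± 0.15 (adjusted p = 3.47e-06) was the largest among members. Its relatives differed: Mrps18b changed by 0.10 ± 0.11 (adjusted p = 0.51) and Mrps18a passed nowhere. Mrps31, specific to mitochondria, read 339, 264 and 217 in DM and 136, 105 and 136 in GM vector arrays (rise 1.02 ± 0.22, adjusted p = 0.00112). The DM arrays spread widely but stayed above GM. Mrps22, also specific to mitochondria, rose by 0.82 ± 0.15 (adjusted p = 0.000325). Mrps11, the homologue of bacterial S11 on the platform, read 166, 137 and 187 in DM vector arrays against 302, 383 and 399 in GM vector arrays, -1.08 ± 0.14 (adjusted p = 1.2e-05), without overlap. Mrps25 fell by 0.73 on the log2 scale and Mrps16 by 0.49 (adjusted p = 0.00233 and 0.00931).

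**Figure D2:**
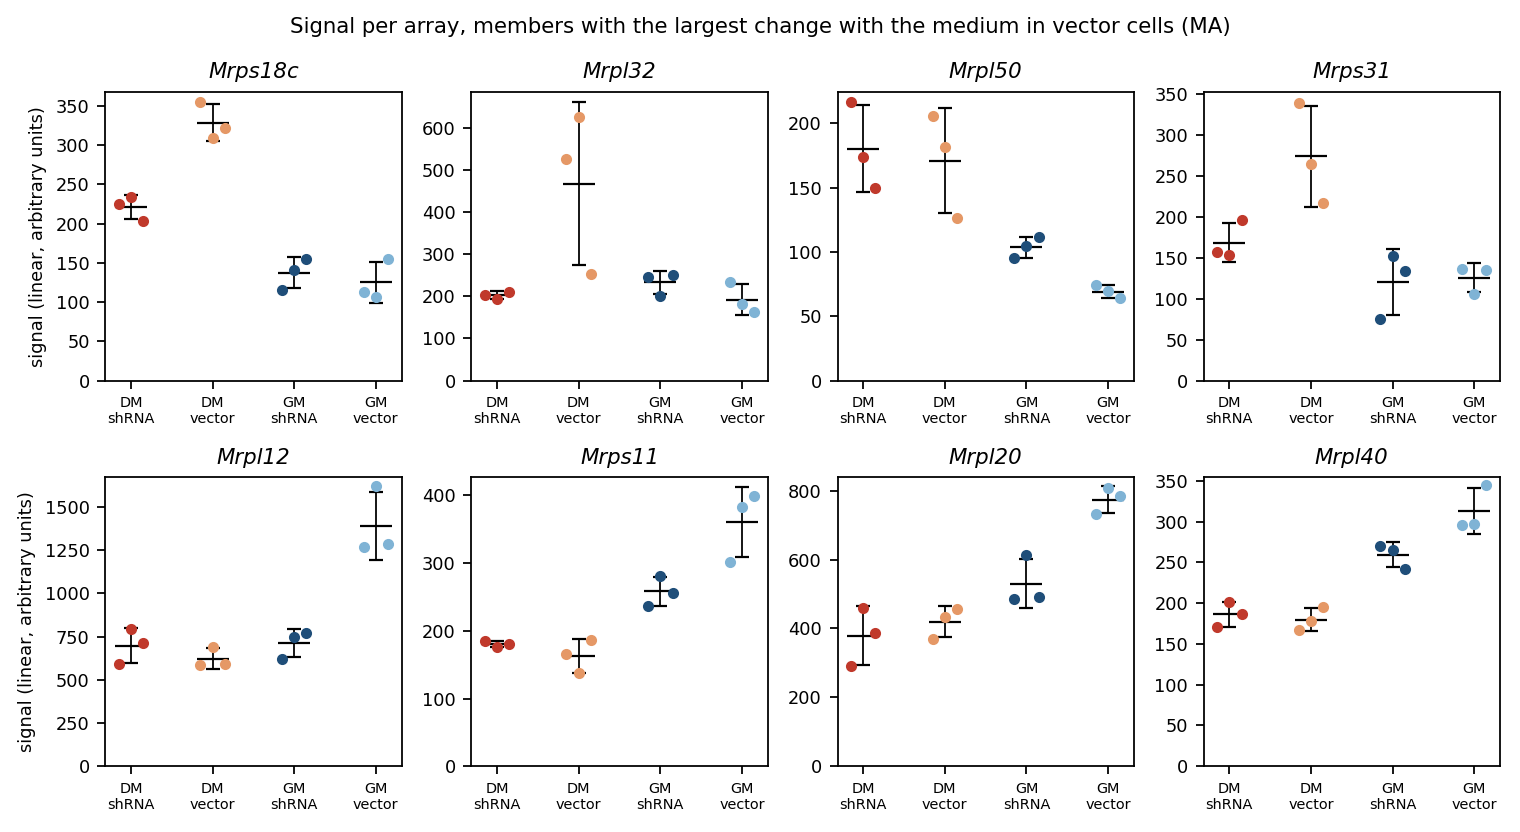
Signal per MA array (linear, arbitrary units, y axis from 0) of the 8 members with the largest rises and falls with DM in vector cells, in DM shRNA, DM vector, GM shRNA and GM vector cells; points are arrays, bars the mean and SD of 3. DM vector arrays of Mrps18c lie between 309 and 355 and its GM vector arrays between 107 and 156, while for Mrpl12 the DM vector arrays lie between 585 and 690.2 and the GM vector arrays between 1268 and 1619.

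Among the factors, Gfm2 rose by 0.93 ± 0.14 (adjusted p = 8.15e-05), with 199, 161 and 213 in DM vector arrays and 79.4, 101 and 98.4 in GM vector arrays. A second Gfm2 probe set changed by 0.17 ± 0.19 and did not pass (adjusted p = 0.515). Mtif2 rose by 0.69 ± 0.20 (adjusted p = 0.011), a call lost without DM vector replicate 1 (adjusted p = 0.051), at signals of 56.6, 37.2 and 45.2 in DM and 22.6, 21.9 and 23.5 in GM, close to the filter. Tufm changed by -0.21 ± 0.17 (adjusted p = 0.338), and the 2 probe sets of Gfm1 by -0.18 ± 0.12 and 0.20 ± 0.23 (adjusted p = 0.21 and 0.49). In the other pairwise comparisons on MA neither Gfm1 probe set nor Mtif2 passed, and their changes there lay between -0.17 and 0.37. A pair of further Tufm probe sets on MA stayed below the signal filter.

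DM against GM in shRNA cells gave 14 rises (11.86%, against 16.3% of all) and 16 falls (13.56%, against 17.5% of all) among the 118 probe sets. The member median was 0.036. The falls numbered 10 without DM shRNA replicate 1, 8 without GM shRNA replicate 3, and 10 with 1 probe set per gene. Calls in the 2 constructs rest on different arrays. Of the 14 rises in shRNA cells 11 (78.57%) also passed in vector cells, 40.74% of the 27 there. Of the 16 falls 8 (50%) did, which is 40.0% of the 20, and none passed in opposite directions. The same overlap was not taken over all tested probe sets, so these percentages cannot be read as a trait of the members. The shared rises belong to Gfm2, Mrpl9, Mrpl21, Mrpl35, Mrpl38, Mrpl42, Mrpl50, Mrps2, Mrps18c and both probe sets of Mrps23, and the shared falls to Mrpl20, Mrpl28, Mrpl40, Mrpl58, Mrps11, Mrps24 and both probe sets of Mrps25. Over all 118 probe sets the changes in both constructs correlated at r = 0.669, against 0.846 over all tested probe sets, as a description across probe sets.

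Mrpl50 had the largest rise in shRNA cells by the brightest probe set, with 217, 174 and 149.9 in DM shRNA arrays and 95, 105 and 111 in GM shRNA arrays (rise 0.71 ± 0.17, adjusted p = 0.00535). Mrpl35 read 314, 324 and 344 in DM and 242, 159.8 and 209 in GM shRNA arrays (rise 0.66 ± 0.14, adjusted p = 0.00155). Both genes stood apart by medium in all 6 arrays. Mrpl38 and Mrpl21 rose by 0.55 ± 0.12 and 0.56 ± 0.13 (adjusted p = 0.00278 and 0.00417). A dimmer probe set of Mrpl15 rose by 1.11 (adjusted p = 0.00424), where its brightest changed by 0.31 ± 0.16 (adjusted p = 0.155). In the small subunit Mrps18c rose by 0.64 ± 0.15 and Mrps23, specific to mitochondria, by 0.61 ± 0.11 (adjusted p = 0.00378 and 0.000523). Gfm2 read 131, 114 and 129 in DM shRNA arrays against 79.9, 65 and 78.6 in GM shRNA arrays, a rise of 0.64 ± 0.14 (adjusted p = 0.00306). By this brighter probe set the recycling factor was above GM in all DM arrays of both constructs. Its second probe set changed by 0.36 ± 0.19 in shRNA cells (adjusted p = 0.176) and by 0.17 ± 0.19 in vector cells (adjusted p = 0.515), where the media overlapped. Tufm, which did not pass in vector cells, read 127, 184 and 133 in DM and 73, 121 and 77.1 in GM shRNA arrays (rise 0.64 ± 0.17, adjusted p = 0.0109). That call was lost without DM shRNA replicate 2 or GM shRNA replicate 2 (adjusted p 0.0551 to 0.0618).

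Among the falls in shRNA cells, Mrps25, specific to mitochondria, read 116, 127 and 131 in DM and 199.6, 260.3 and 209 in GM shRNA arrays, -0.76 ± 0.17 (adjusted p = 0.00287) beside -0.73 ± 0.17 in vector cells, and without overlap. Mrpl58 (Ict1), a peptidyl-tRNA hydrolase that frees stalled ribosomes, read 347, 396 and 532 in DM and 576, 779 and 511 in GM shRNA arrays; the groups overlapped, and the change was -0.53 ± 0.17 (adjusted p = 0.0226). Mrpl51 read 674, 647 and 701 in DM and 911, 906 and 1034 in GM shRNA arrays (-0.48 ± 0.14, adjusted p = 0.013). DM arrays of Mrpl51 were all below GM arrays. Mrpl20 read 292, 461 and 386 in DM and 487, 613 and 490.4 in GM shRNA arrays (-0.48 ± 0.15, adjusted p = 0.0234). Mrpl24 and Mrpl40 fell by 0.48 and 0.45 (adjusted p = 0.00103 and 0.00816), Mrps11 by 0.48 and Mrpl17 by 0.40 (adjusted p = 0.0141 and 0.0303). Some of these calls rested on single shRNA arrays. Mrpl58 was lost without DM replicate 1 or 2 or GM replicate 3 (adjusted p 0.0732 to 0.118), Mrpl51 without GM replicate 4 (0.0563), Mrpl20 without DM replicate 1 or GM replicate 3 (0.107 to 0.124), Mrps11 without GM replicate 3 (0.0595) and Mrpl17 without DM replicate 1 or 2 or GM replicate 3 or 4 (0.0577 to 0.124).

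**Figure D3:**
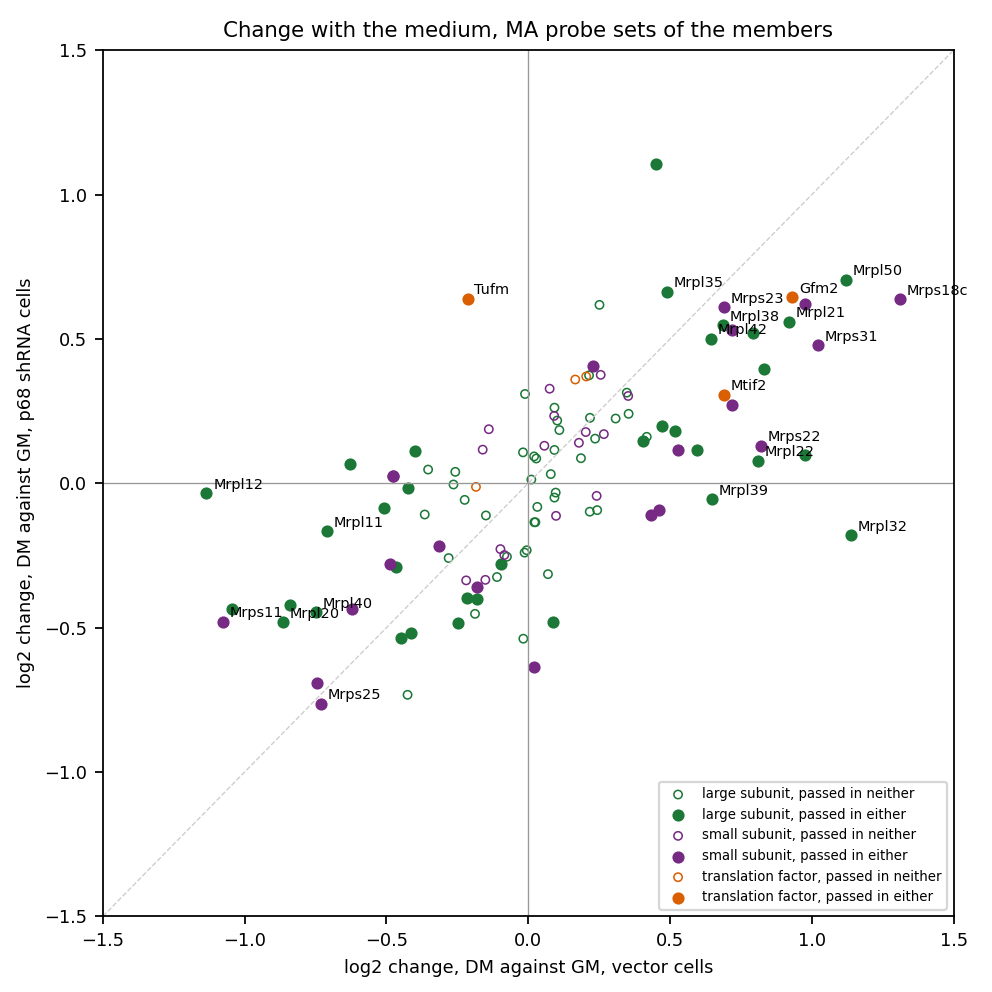
Log2 change in signal, DM against GM, of each of the 118 member probe sets on MA in vector cells (x axis) and shRNA cells (y axis), coloured by role; filled points passed in at least 1 construct and the dashed line marks equal changes. Mrps18c and Mrpl50 lie at the upper right, Mrps25 and Mrps11 at the lower left, while Mrpl12 (-0.035 in shRNA and -1.13 in vector cells) and Mrpl32 (-0.18 in shRNA and 1.14 in vector cells) lie near the zero line for shRNA cells.

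In DM, shRNA against vector asks how these genes differ in differentiating cells that carry the hairpin against p68. More of them were lower than higher: 11 of 118 probe sets fell (9.322%, against 6.24% of all) and 2 rose (1.695%, against 10.7% of all). The member median was -0.133 and that of all tested probe sets 0.052, and 85 of the 118 changes were below 0. Falls came from 7 probe sets of the large subunit, 3 of the small subunit and Gfm2. Without DM vector replicate 3, the MA array least like its group, 18 fell, and with arrays weighted by quality 26 fell and 5 rose. Rises numbered 4 without DM vector replicate 1, and 1 without DM vector replicate 3 or without any single DM shRNA array.

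Mrpl24, whose bacterial counterpart starts assembly of the large subunit, read 388, 413 and 405 in DM shRNA arrays against 667, 622 and 688 in DM vector arrays (-0.69 ± 0.09, adjusted p = 0.000138). Arrays within each group lay close and the groups were far apart. Mrpl32 read 204, 194 and 211 in DM shRNA and 526, 625 and 252 in DM vector arrays, -1.05 ± 0.24 (adjusted p = 0.00775), with the spread within vector arrays noted above. Mrpl38, specific to mitochondria, read 206, 210.3 and 249 in DM shRNA against 326, 341 and 374 in DM vector arrays (-0.62 ± 0.12, adjusted p = 0.0026), without overlap. Mrpl42 fell by 0.56 (adjusted p = 0.00728), Mrpl21 by 0.42 (adjusted p = 0.0398), Mrpl23, which sits at the tunnel exit, by 0.40 (adjusted p = 0.0192), and Mrpl2, close to the catalytic centre, by 0.38 (adjusted p = 0.0413). In the small subunit, Mrps18b read 307, 346 and 332 in DM shRNA arrays against 507, 577 and 475 in DM vector arrays (-0.64 ± 0.11, adjusted p = 0.00137). All shRNA arrays were lower. Mrps26, specific to mitochondria, changed by -0.54 ± 0.10 (adjusted p = 0.00206) and Mrps18c by -0.54 ± 0.15 (adjusted p = 0.0191). The recycling factor Gfm2 read 131, 114 and 129 in DM shRNA and 199, 161 and 213 in DM vector arrays (-0.56 ± 0.14, adjusted p = 0.0151), while its second probe set changed by 0.17 ± 0.19 (adjusted p = 0.617). Mrps6, whose bacterial counterpart pairs with S18, rose: 300.2, 369 and 381 in DM shRNA arrays against 218, 267 and 219 in DM vector arrays (0.55 ± 0.13, adjusted p = 0.00888). Mrpl19 read 165, 171 and 173 in DM shRNA and 124, 135 and 107 in DM vector arrays (0.44 ± 0.12, adjusted p = 0.0218). For both genes every shRNA array was higher. Calls lost with 1 array were those of Mrpl19 (without any DM shRNA array or DM vector replicate 3, adjusted p 0.0503 to 0.0707), Gfm2 (DM shRNA replicate 2, 0.0707) and Mrps18c (DM shRNA replicate 3 or DM vector replicate 1, 0.0559 to 0.0748).

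In the same comparison the summed signal of the muscle markers, given above, was lower in every DM shRNA array than in any DM vector array (4 of 6 fell). Of the dividing cell markers Mki67, Top2a and Ccnb1, 2 were on MA, and the 2 rose. Their sum was 457.6 to 622.1 in DM shRNA against 159.2 to 221.0 in DM vector arrays. A sum of signals can rest mostly on its brightest probe set. The part of these markers in the members' changes was not tested. In bulk RNA fewer cells of a type and less RNA per cell cannot be told apart.

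**Figure D4:**
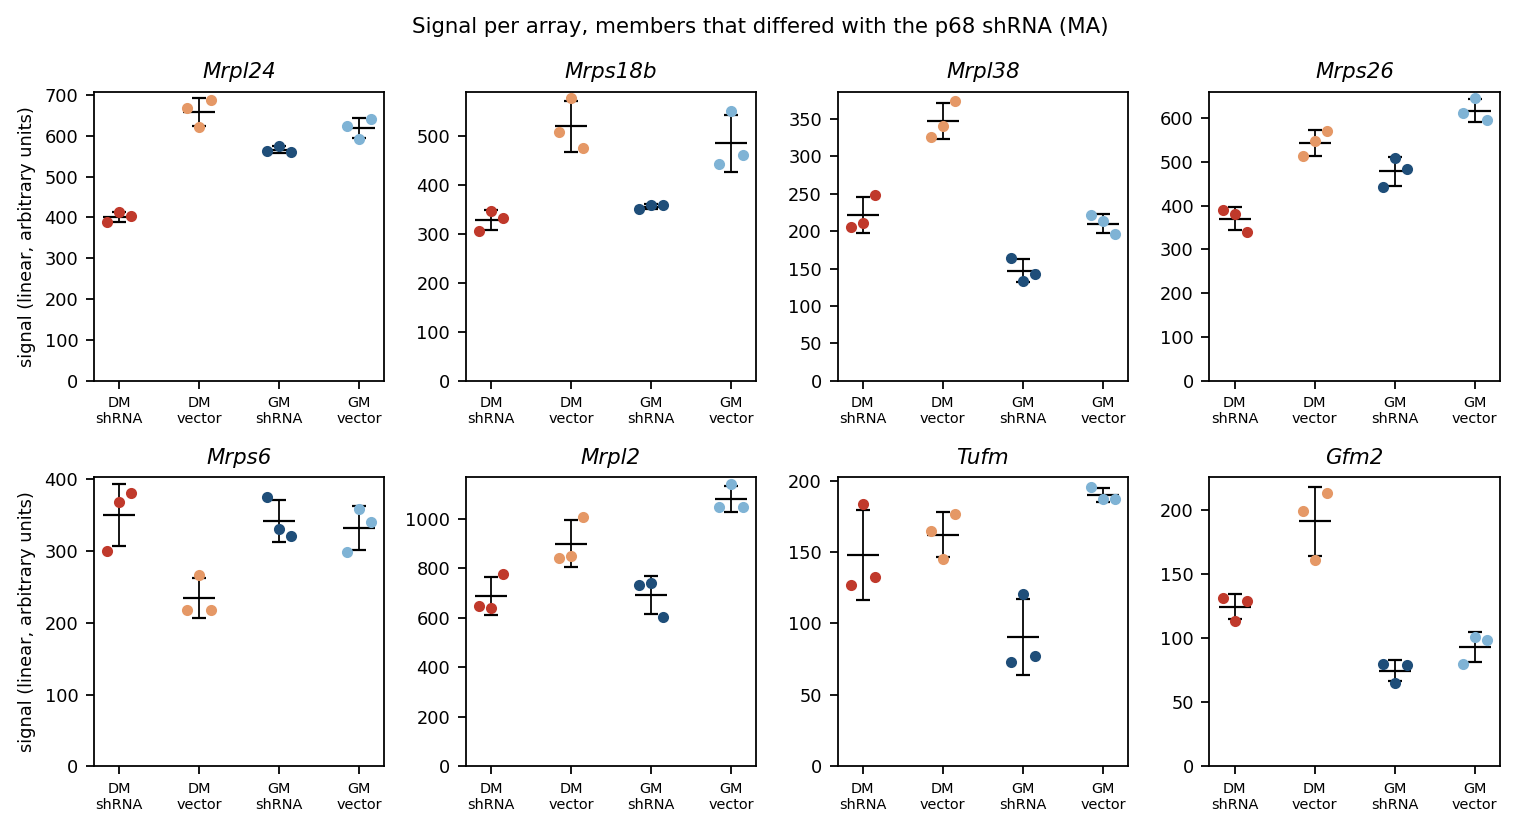
Signal per MA array (linear, arbitrary units, y axis from 0) of 8 members that passed in shRNA against vector, in DM shRNA, DM vector, GM shRNA and GM vector cells; points are arrays, bars the mean and SD of 3. Mrpl24 lies between 388 and 413 in DM shRNA arrays and between 622 and 688 in DM vector arrays, and Tufm between 73.0 and 121 in GM shRNA arrays and between 187 and 196 in GM vector arrays.

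In GM, where the cells divide, 9 of 118 member probe sets fell with the shRNA (7.627%, against 2.57% of all). None rose by limma (3.99% of all). The member median was -0.067 and that of all tested probe sets 0.039. Ddx5 itself, lower on average with the shRNA, did not pass in GM. Tufm had the largest fall, with 73, 121 and 77.1 in GM shRNA arrays against 196, 187 and 187 in GM vector arrays (-0.99 ± 0.17, adjusted p = 0.00406). The shRNA arrays were all lower, and GM shRNA replicate 3 stood above its partners. Mrpl12 read 623, 749 and 769 in GM shRNA and 1268, 1619 and 1286 in GM vector arrays (-0.95 ± 0.14, adjusted p = 0.00096). Mrpl2 read 733, 739 and 601 in GM shRNA and 1049, 1140.3 and 1048 in GM vector arrays (-0.64 ± 0.12, adjusted p = 0.00562). Neither gene's groups overlapped. Mrpl20 read 487, 613 and 490.4 in GM shRNA against 732, 807 and 784 in GM vector arrays (-0.54 ± 0.15, adjusted p = 0.0472). Smaller falls passed for Mrpl38 (-0.48 ± 0.12, adjusted p = 0.029), Mrps18b (-0.43 ± 0.11, adjusted p = 0.0379) and Mrps26 (-0.36 ± 0.10, adjusted p = 0.0497). Dimmer probe sets of Mrpl15 (-0.54, adjusted p = 0.00983) and Mrpl28 (-0.69, adjusted p = 0.00701) fell, where their brightest did not pass (-0.49 ± 0.16 and -0.51 ± 0.17). Of the 11 probe sets that fell in DM and the 9 in GM, 4 were shared, those of Mrpl2, Mrpl38, Mrps18b and Mrps26 (36.36% and 44.44%). The overlap over all tested probe sets was not taken, so it is no result about the members. Changes in the 2 media, over all 118, correlated at r = 0.092, against 0.123 over all tested probe sets.

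Several GM calls were close to the threshold. Mrpl20 was lost without 1 of 7 arrays (DM shRNA replicate 3, DM vector replicate 2, GM shRNA replicate 2 or 4, or any GM vector array; adjusted p 0.0582 to 0.158). Mrpl38 was lost without GM shRNA replicate 3 or 4 or any GM vector array (0.0507 to 0.111). Mrps18b was lost without any single GM array or DM shRNA replicate 2 or 3 (0.051 to 0.175), and Mrps26 without any array other than DM vector replicates 1 and 3 (0.0544 to 0.177). The falls numbered 5 without GM shRNA replicate 4 or GM vector replicate 3 or 4, and 14 when only the GM arrays were fitted; 3 rose without DM vector replicate 3, 2 with only the GM arrays, 4 with array weights and 1 with a signal filter of 100. The muscle markers' sum was lower in GM shRNA than in GM vector arrays and 1 of the 6 fell; the sum of dividing cell markers was 682.9 to 709.6 in GM shRNA and 822.9 to 988.3 in GM vector arrays. Their part was not tested.

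**Figure D5:**
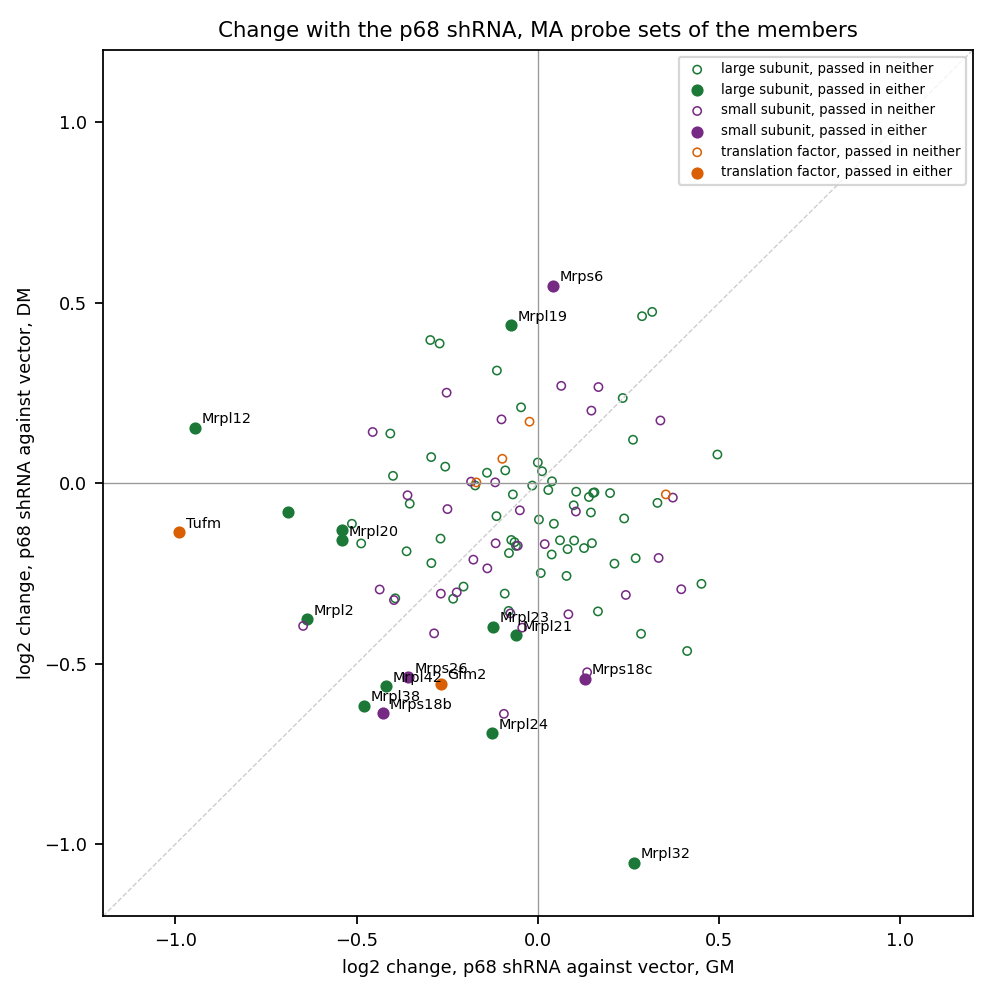
Log2 change in signal, shRNA against vector, of each of the 118 member probe sets on MA in GM (x axis) and DM (y axis), coloured by role; filled points passed in at least 1 medium and the dashed line marks equal changes. Mrpl38, Mrps18b and Mrps26 lie low in both media, Tufm (-0.14 in DM and -0.99 in GM) and Mrpl12 (0.15 in DM and -0.95 in GM) low in GM, and Mrpl24 (-0.69 in DM and -0.13 in GM) and Mrpl32 (-1.05 in DM and 0.27 in GM) low in DM.

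Whether the shRNA altered the medium response was tested as an interaction, the change with DM in shRNA cells minus that in vector cells. It passed for 6 of 118 member probe sets, 2 higher (1.695%, against 5.48% of all) and 4 lower (3.39%, against 4.48% of all). Mrpl12 (1.10 ± 0.19, adjusted p = 0.00258) changed by -0.035 ± 0.14 with DM in shRNA cells and fell in vector cells. Its GM shRNA arrays were already near the DM level. Tufm (0.85 ± 0.25, adjusted p = 0.0417) had the pattern given above. Mrpl32 (-1.32 ± 0.34, adjusted p = 0.0255) changed by -0.18 ± 0.24 with DM in shRNA cells and rose in vector cells. Mrpl24 (-0.57 ± 0.13, adjusted p = 0.0134) fell with DM in shRNA cells and changed by 0.086 ± 0.09 in vector cells. Mrps14, a protein of the small subunit's head, and Mrps28 rose with DM in vector cells, by 0.46 ± 0.11 and 0.43 ± 0.10; their interactions were -0.55 ± 0.16 and -0.54 ± 0.15 (adjusted p = 0.0428 and 0.0316). The Mrpl12 and Mrpl24 calls were kept without any single array. Tufm was lost without any array but DM shRNA replicate 1, DM vector replicate 3 or GM shRNA replicate 3 (adjusted p 0.0559 to 0.116), and Mrps14 without any but DM vector replicate 1 or 3 or GM shRNA replicate 2 (0.0617 to 0.106). Mrps28 was lost without any but DM vector replicate 2 or 3 or GM vector replicate 3 (0.0527 to 0.0834), and Mrpl32 without DM shRNA replicate 2, DM vector replicate 1 or 2, GM shRNA replicate 2 or 4, or GM vector replicate 3 or 4 (0.0501 to 0.0657). Counts moved as well: the lower ones numbered 9 without DM vector replicate 3 and 11 with array weights, and 1 or 2 without any single DM shRNA array, DM vector replicate 1 or 2, GM shRNA replicate 3 or 4, or any GM vector array. The higher ones numbered 4 without DM vector replicate 1 and 8 with array weights, and 1 without DM shRNA replicate 2 or 3, DM vector replicate 2, GM shRNA replicate 2 or GM vector replicate 4.

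MB has wider residual spread, and few member probe sets passed there. With DM in vector cells 1 of 36 rose (4.21% of all) and 2 fell (5.0% of all). Mrps10, the homologue of bacterial S10 in the head, read 3896, 2629 and 3781 in DM vector and 1486, 2409 and 1692 in GM vector arrays (rise 0.89 ± 0.19, adjusted p = 0.00412), without overlap; its dimmer probe set changed by -0.12 ± 0.51 (adjusted p = 0.943). Mrps6 read 2741, 2028 and 3031 in DM vector against 5328, 5090.0 and 5679 in GM vector arrays (-1.06 ± 0.15, adjusted p = 8.97e-05), in the direction of its MA probe set (-0.48 ± 0.13, adjusted p = 0.00655). With the shRNA in DM it changed by 0.56 ± 0.15 on MB (adjusted p = 0.104) and 0.55 ± 0.13 on MA. Mrps27, a protein with RNA-binding repeats specific to mitochondria, fell by 0.79 with DM in vector cells (adjusted p = 0.0234), a call lost without DM vector replicate 1 or 2 or any GM vector array (adjusted p 0.0568 to 0.1). The MB rises numbered 2 without DM vector replicate 2 or GM vector replicate 2.

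No MB member passed in the other comparisons by limma. Of all tested probe sets 4.85% passed with DM in shRNA cells and 1.17% with the shRNA in DM. The shares were 0.275% with the shRNA in GM and 0.389% in the interaction. Tufm's MB probe set read 596, 1084 and 1245 in DM shRNA, 1578, 1213 and 1537 in GM shRNA, 1679, 1369 and 1323 in DM vector and 2123, 2186 and 2180.3 in GM vector arrays. Its changes with DM were -0.61 ± 0.21 in shRNA and -0.57 ± 0.21 in vector cells, and with the shRNA -0.63 ± 0.21 in DM and -0.59 ± 0.21 in GM (adjusted p 0.115 to 0.452). The change with the shRNA in GM had the same sign on both designs, and the change with DM in shRNA cells the opposite one. Tsfm changed by 0.17 ± 0.18 and Mtif3 by -0.33 ± 0.28 with DM in vector cells (adjusted p = 0.667 and 0.593), and neither passed anywhere; the dimmer Tsfm probe set, at -0.79 ± 0.50 (adjusted p = 0.424), did not either. Mtif2 on MB changed by 0.45 ± 0.25 (adjusted p = 0.348), beside the rise on MA. Of 5 probe sets printed on both designs (of Mrpl27, Mrpl43, Mrpl52 and Mtif2), 4 had the same sign on both in each medium comparison, 5 with the shRNA in DM and 4 with the shRNA in GM.

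By gene, 52 of the 82 had a passing probe set in at least 1 of the 4 pairwise comparisons on either design (63.4%), against 45.9% of 14698 genes tested. Genes with more probe sets have more chances to pass: of those with over 1 tested probe set, 71.4% of 42 members and 60.6% of all 6675 genes did, and of those with 1, 55.0% of 40 members and 33.6% of all 8023 genes. The shares also differ in array design: 78 of the 82 members were tested on MA, against 8634 of the 14698 genes. On MB far fewer probe sets passed. The higher share of the members can therefore not be read as a trait of these genes, and no test was made of it. The other 30 members passed in none: Gfm1, Mtif3, Tsfm, Mrpl3, Mrpl4, Mrpl10, Mrpl14, Mrpl16, Mrpl27, Mrpl33, Mrpl36, Mrpl37, Mrpl41, Mrpl43, Mrpl44, Mrpl45, Mrpl46, Mrpl47, Mrpl49, Mrpl54, Mrpl55, Mrpl57, Mrps7, Mrps9, Mrps17, Mrps18a, Mrps21, Mrps30, Mrps34 and Mrps35. No gene had probe sets that passed in opposite directions in a comparison. With 1 probe set per gene, 10 of 78 members rose and 10 fell with DM in shRNA cells, where 16.2% of 8634 genes rose and 18.9% fell. In vector cells 20 rose and 14 fell (23.2% and 27.1% of all genes). With the shRNA 2 rose and 11 fell in DM (12.1% and 6.67% of all genes), and 0 rose and 7 fell in GM (4.35% and 2.69% of all genes).

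Other genes of mitochondrial gene expression were read by the same gene-level fit on MA. Oxidative phosphorylation subunits, many of them assembled with products of the mitochondrial ribosome, mostly rose where they passed with DM: 26 of 77 rose and 0 fell with DM in shRNA cells (median 0.263), and 46 rose and 2 fell in vector cells (median 0.394), where the medians of all genes were -0.02 in shRNA and -0.017 in vector cells. With the shRNA 12 fell and 0 rose in DM (median -0.219, all genes 0.062), and 6 rose and 4 fell in GM. Cytosolic ribosomal proteins had 0 rises and 4 falls of 39 with DM in shRNA cells and 4 and 6 in vector cells. With the shRNA they had 1 rise in DM and no call in GM. Their median with the shRNA was -0.119 in DM, where that of the member genes was -0.124 and that of all genes 0.062. In GM it was -0.178, where the member genes had -0.075 and all genes 0.035. A lower median with the shRNA was therefore not particular to the members. Among 4 further ribosome subunits Ptcd3 rose with DM in shRNA (0.93, adjusted p = 0.0163) and vector cells (0.91, adjusted p = 0.0121). On MB Ptcd3 did not pass and had the opposite sign (-0.69 ± 0.53 in shRNA and -0.13 ± 0.53 in vector cells). Dap3, a GTP-binding small subunit protein, fell in shRNA (-0.51, adjusted p = 0.00164) and vector cells (-0.38, adjusted p = 0.00756). Dap3 was also lower with the shRNA in DM (-0.35, adjusted p = 0.0329).

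The recycling factor Mrrf, partner of Gfm2, was the 1 tested gene of its list; it rose with DM in vector cells (0.35, adjusted p = 0.0339) and fell with the shRNA in DM (-0.53, adjusted p = 0.00912). Of 7 translation activators and related genes 3 rose and none fell with DM in vector cells: Slirp (0.83) and its partner Lrpprc (0.36), which stabilise mitochondrial mRNA, and Pdf (0.76), the deformylase. In shRNA cells Slirp and Lrpprc rose again (0.56 and 0.51), and the interaction of Pdf was -0.65 (adjusted p = 0.0426). Of 9 synthetases that charge mitochondrial tRNA, 1 rose and 3 fell with DM in vector cells, led by Rars2 (1.01) and Pars2 (-0.61). The 3 amidotransferase subunits in their list, Gatb, Gatc and Qrsl1, which complete the charging of glutamine tRNA, passed in none of the 4 pairwise comparisons on MA. Tars2, the threonine enzyme, was lower with the shRNA in DM (-1.05, adjusted p = 0.000111) and in GM (-0.55, adjusted p = 0.027), and Kars, which also serves the cytosol, in GM (-0.40, adjusted p = 0.0471).

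Of 16 assembly and rRNA modification genes 4 rose and 2 fell with DM in vector cells, among them Mterf3 (1.00), Ngrn (0.86) and Nsun4 (0.58). In shRNA cells Mterf3 and Eral1 rose (0.82 and 0.39), and with the shRNA in DM the assembly GTPase Mtg1 fell (-0.63, adjusted p = 0.00177). On MB Mterf3, Nsun4 and Eral1 did not pass. With DM they changed there by -0.61, -0.28 and 0.18 in vector cells and by 0.22, -0.16 and 0.20 in shRNA cells. Of 8 genes of mitochondrial transcription and DNA 3 rose and 1 fell with DM in vector cells: the transcription factors Tfb2m (1.07), Tefm (0.80) and Tfam (0.59), and the DNA polymerase subunit Polg (-0.63). Among 8 nuclear regulators Nrf1 and Pprc1 fell with DM in vector cells (-0.58 and -0.57, adjusted p = 0.00963 and 0.0249). Ppargc1b, a coactivator of mitochondrial genes, rose with DM in shRNA cells (0.72, adjusted p = 0.000461) and was higher with the shRNA in DM (0.44, adjusted p = 0.0234), where Myc was lower (-0.59, adjusted p = 0.0174); the Ppargc1b interaction was 0.83 (adjusted p = 0.00833). With DM in vector cells, where 23.2% of all genes rose and 27.1% fell with a median log2 change of -0.017, the median was 0.29 over the activators, -0.118 over the synthetases and amidotransferase subunits, 0.147 over the assembly genes, 0.311 over the transcription and DNA genes and -0.025 over the nuclear regulators. In lists of 7 to 16 genes these counts of 1 to 4 are too few to be read as a result about any of the lists.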

How the data were processed

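The deposited files hold a linear intensity for each probe set on each array; MAS5 is named in the submitters' processing notes, and from the values the arrays had been scaled to a common trimmed mean before deposit. No source used here states its settings. Groups came from the sample titles. Whether replicates come from separate cultures is not stated in the labels; p-values therefore reflect the spread between arrays, possibly a technical one. Arrays give no counts, and their number limits the precision.

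MA (22690 probe sets) and MB (22575) were tested apart, without 64 control probe sets each. Of the rest, 20380 and 14661 carry 1 symbol in the platform annotation, 691 and 245 several and 1555 and 7605 none; all 82 member symbols equal RefSeq's (GRCm38.p6). Signals + 15 were taken to log2, so changes of dim probe sets are understated, and probe sets that did not reach 30 in at least 3 arrays were left out (14367 and 19303 tested; 17 and 2 member probe sets left out). limma 3.58.1 in R 4.3.3 fitted 4 group means with a trended prior (8 residual degrees of freedom); the Benjamini-Hochberg adjustment ran over all tested probe sets of a design and comparison, and adjusted p under 0.05 passed. Changes are shown with their SE, for 3 arrays against 3, where an exact permutation test cannot go below 0.1. Comparisons that share a group are not independent. The fit was tested on simulated data, where 100 probe sets were shifted by each amount and all others had equal group means. On MA with the shRNA in DM (14367 probe sets), it recovered 15% of shifts of 0.5 and 75% of shifts of 1 (log2). On MB (19303) it recovered 0% and 10%. In the data 1533 MA probe sets rose and 897 fell in that comparison, so the adjustment was stricter in the simulation. These percentages are therefore not the power of the comparison made.

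The members, gene lists and motifs were chosen with earlier results of these data known. Named were, per comparison, the up to 8 genes with the largest passing rises and falls, by the probe set with the highest mean, with values per array for up to 4; every passing member with the shRNA in GM and in the interaction; the factors; and up to 3 passing genes per list, beside further passing genes chosen after their values were seen. Probe sets whose names end in s_at or x_at can also bind related transcripts. On MA the deviations of same-numbered arrays had a mean correlation of 0.09 (range -0.139 to 0.293 over 13 pairs). Arrays of different number had -0.028 (-0.277 to 0.204 over 41 pairs). On MB the means were 0.006 and -0.003. The ranges overlapped, and the number was a block only as an alternative.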

Additional observations from a re-analysis of the deposited data

Results flagged for a closer look

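For 6 members the change with DM differed between shRNA and vector cells, by limma's test of the difference itself (change with DM in shRNA cells minus that in vector cells, log2 scale). The differences were -1.32 for Mrpl32, -0.57 for Mrpl24, -0.55 for Mrps14 and -0.54 for Mrps28, and 0.85 for Tufm and 1.10 for Mrpl12. Those of Mrpl12 and Mrpl24 passed without any single array, and the others were lost with at least 7 of 12 arrays left out in turn. Tufm on MA rested on 1 probe set, and its MB probe set had an interaction of -0.041 (adjusted p = 0.989).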

How the results depend on the processing

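The alternatives were other pseudocounts, signal filters, quantile normalization, no trend, array weights, only the arrays compared, 1 probe set per gene, the replicate number as a block, and each array left out in turn. Of 1024 values of named members under the settings other than leaving out arrays, 996 kept their direction and side of the threshold, 26 no longer passed, 2 newly passed and 0 reversed. With the replicate number as a block, 100 of 107 named values kept their side and 7 were lost, and no count of members moved by over 1.5 times. On MA, falls with DM in shRNA cells were 10 with 1 probe set per gene. With the shRNA in DM, rises were 1 with quantile normalization or only the arrays compared and 5 with array weights, and falls 26 with array weights. With the shRNA in GM, rises were 1 with a filter of 100, 2 with only the arrays compared and 4 with array weights, and falls 14 with only the arrays compared. In the interaction, higher calls were 1 without a filter, with quantile normalization or without trend, 5 with a filter of 100 and 8 with array weights, and lower calls 11 with array weights. On MB, rises with DM in vector cells were 2 with a pseudocount of 50, a filter of 100, quantile normalization or array weights and 0 without trend, and falls 1 without trend; quantile normalization gave 1 rise and 1 fall with the shRNA in DM and 1 higher interaction. The cause of these shifts was not tested. Leaving out single arrays gave, on MA, 11 to 15 rises and 8 to 19 falls with DM in shRNA cells, 25 to 29 and 16 to 24 in vector cells, 1 to 4 and 8 to 18 with the shRNA in DM, 0 to 3 and 5 to 11 in GM, and 1 to 4 higher and 1 to 9 lower interactions. On MB it gave 0 rises and 0 to 1 falls with DM in shRNA cells, 1 to 2 and 1 to 3 in vector cells, 0 to 2 and 0 to 1 with the shRNA in DM, none in GM, and 0 to 1 higher and 0 lower interactions. Of 59 calls of named members 39 passed without any single array and 20 were lost without at least 1. The wider spread on MB limits what could pass there.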
